A study of Mus musculus with 6 samples.

Results

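The mitochondrial ribosomal protein genes are the nuclear genes whose symbols read Mrpl (large subunit) or Mrps (small subunit) followed by a number and at most 1 letter. The family was chosen with earlier results of these data known. Its members were taken by symbol alone, from probe sets that the platform annotation pairs with 1 gene. They came to 127 probe sets, of 22626 on the array once its own controls are set aside, and to 74 of 12393 genes, 47 of the large and 27 of the small subunit. Another 3 probe sets name such a gene together with a second gene and were left out. C2C12, an established line of mouse muscle precursor cells, forms multinucleated myotubes when serum is withdrawn. After 5 days in 2% horse serum, the cells were kept for 16 h with 1% bovine serum albumin (BSA, 3 arrays) or 500 µM palmitate (3 arrays), a saturated fatty acid that was bound to fatty acid-free BSA. The groups share the line, the serum and the time, and carry no transgene. Each RNA sample went to 1 Affymetrix mouse 430A 2.0 array. Replicates are numbered in the labels, but nothing says whether each was a culture of its own, so a p-value here refers to the spread among the arrays, part or all of which may be technical.

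Mitochondria translate the few proteins encoded in their own genome, all of them subunits of the respiratory chain or ATP synthase, on a ribosome of their own. Its RNAs are transcribed from mitochondrial DNA, but its proteins are encoded in the nucleus, made in the cytosol and imported. Many of these proteins have a counterpart in the bacterial ribosome, and others are found in mitochondria alone. Contracting muscle depends on respiration, and loss of single mitochondrial ribosomal proteins causes human disease of the respiratory chain.

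Palmitate left most mitochondrial ribosomal protein transcripts within the spread between arrays and moved a few in opposite directions. Of the 74 genes, each by its brightest probe set, 2 rose (Mrps18b and Mrps6) and 6 fell (Mrps35, Mrpl18, Mrps15, Mrps24, Mrpl13 and Mrpl51), by limma with an adjusted p under 0.05 over all 13575 probe sets tested. This is 10.8% of the members, against 20.2% of all 7931 genes tested, of which 7.92% rose and 12.3% fell. Leaving out 1 array in turn gave 2 genes higher each time and 3 to 5 lower, with 3 on leaving out BSA 1, BSA 2, palmitate 1 or palmitate 3. By probe set it is again 2 and 6, of 109 tested (7.34%), against 19.2% of all probe sets, of which 8.63% rose and 10.6% fell. The median log2 fold change of the 74 genes, palmitate over BSA, was -0.058, and that of all genes was -0.051. Their median absolute log2 fold change was 0.24, against 0.34 over all genes, and their median SE was 0.19 against 0.21. The 95% interval of the fold change lay inside a 2-fold change in either direction for 68 of the 74 members and for 4994 of the 7931 genes. All 74 genes passed the filter on dim probe sets (a signal of 267.1), while 18 of the 127 probe sets did not and were not tested. The groups did not overlap for 35 of the 109 member probe sets, 14 with all palmitate arrays higher and 21 with all lower. That is 32.1%, against 37.2% of all probe sets, which split into 17.6% higher and 19.6% lower.

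Both the split into higher and lower and the share of members called depend on how arrays are set to a common scale. The deposited signals have a 2% trimmed mean of 1500.5 to 1500.56 on every array. The 9 BioB, BioC, BioDn and CreX probe sets, which report RNAs added at hybridisation, were 0.26 higher on the log2 scale with palmitate (exact permutation p = 0.1, two-sided, the smallest possible with 3 arrays against 3), and a second set of 9 was 0.33 higher (exact permutation p = 0.1). Scaled to the former, 1 member gene rose and 21 fell, against 3.61% and 23.2% of all genes, while the median of all probe sets moved to -0.27. The share called was then 29.7% of the members against 26.8% of all genes, so that the members were no longer below all genes. Of genes listed as markers, all 5 tested for fibroblasts and 6 of 9 tested for proliferation fell. The samples are labelled as C2C12 myotubes, and whether any fibroblasts were among them was not tested. Signals were summed over all listed genes on the array, dim ones included. The 7 fibroblast markers summed to 26849 to 31860 in palmitate against 94415 to 115916 in BSA arrays. The 10 proliferation markers summed to 31657 to 35460 against 47183 to 59861. Of the myotube markers all 19 were above the filter and 2 fell, with sums of 284407 to 291974 against 255471 to 393188. The 5 endothelial markers, 5 of 6 adipocyte and 5 of 8 macrophage markers were below the filter, and 0 of the rest were called. Their sums were low but higher with palmitate for 2 of these lists. Adipocyte markers summed to 932.8 to 1219.9 against 592.3 to 931.1, and macrophage markers to 2553.6 to 2785.5 against 2009.7 to 2510.0. Endothelial sums overlapped. The part of these shifts in the results was not tested. In such cultures fewer cells of a type and less RNA per cell cannot be told apart. As a sign of RNA quality, Gapdh controls at the 3' end stood above those at the 5' end by 0.27 ± 0.07 on the log2 scale on the BSA arrays and by 0.07 ± 0.24 on the palmitate arrays (SD, n = 3 each, exact permutation p = 0.2).

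**Figure D1:**
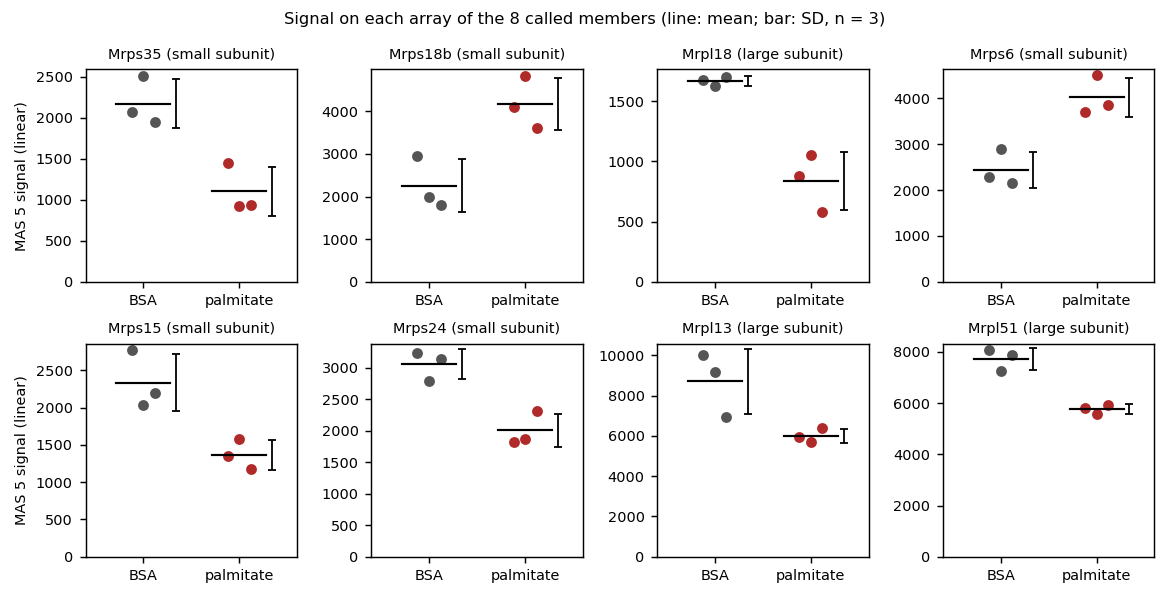
MAS 5 signal (linear axis from 0) of the 8 members that passed the threshold, by array, with the group mean as a line and the SD as a bar (n = 3). In every panel the palmitate arrays lie all above or all below the BSA arrays, and Mrps18b and Mrps6 are the 2 that rose.

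In the small subunit, 2 genes rose. Mrps18b encodes 1 of 3 mammalian counterparts of bacterial S18. Its signal was 2962, 1983 and 1809 on the BSA arrays and 4106, 4824 and 3609 on the palmitate arrays. All 3 palmitate arrays lay above all BSA arrays, with BSA 1 nearest to them. The log2 fold change was 0.92 ± 0.21 (SE, n = 3 per group; 95% interval 0.47 to 1.36; limma adjusted p = 0.00898), and it was called on leaving out any single array, at 0.78 to 1.13. Mrps6, the counterpart of bacterial S6, had signals of 2280.1, 2887 and 2151 with BSA and 3714, 4511 and 3854 with palmitate. Again no array of a group reached into the other. The log2 fold change was 0.73 ± 0.17 (limma adjusted p = 0.0113), 0.65 to 0.86 on leaving out an array, and 0.47 (adjusted p = 0.0707) after scaling to the hybridisation controls.

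In the same subunit, 3 genes fell. Mrps35, a protein of the mitochondrial small subunit with no bacterial counterpart, gave 2070.0, 2504.5 and 1943 with BSA and 1449, 927.2 and 931.2 with palmitate. Palmitate 1 was the highest of its group and still below every BSA array. The log2 fold change was -1.003 ± 0.22 (limma adjusted p = 0.00778), a 2.00-fold lower signal, and leaving out an array gave -1.22 to -0.90. Mrps15, counterpart of bacterial S15, which binds ribosomal RNA early in assembly, had signals of 2768, 2035 and 2200.5 with BSA and 1346, 1574 and 1178 with palmitate. The groups were apart, at a log2 fold change of -0.77 ± 0.19 (limma adjusted p = 0.0159), but without palmitate 3 the adjusted p was 0.0631. Mrps24, counterpart of bacterial S3, lay at 3245, 2797 and 3145.5 with BSA and at 1829, 1875 and 2316.5 with palmitate. Its log2 fold change was -0.62 ± 0.17 (limma adjusted p = 0.0240), and the call was kept only on leaving out palmitate 3, with adjusted p of 0.0263 to 0.0847 over the 6 arrays left out in turn.

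In the large subunit 3 genes fell and 0 rose by limma, while 5 of 47 had an unadjusted p under 0.05, as did 33.5% of all genes. Mrpl18 is the counterpart of bacterial L18, which binds the 5S ribosomal RNA of the central protuberance in bacteria. Its signal was 1676, 1624 and 1702 with BSA and 874.0, 1055 and 580.7 with palmitate. The BSA arrays were close together and the palmitate arrays spread, and all of the latter were lower. The log2 fold change of -1.04 ± 0.23 (limma adjusted p = 0.00934), a 2.05-fold lower signal, was the lowest of the 74 genes and was called without any single array (-1.23 to -0.80). Mrpl13, counterpart of bacterial L13, an early assembling protein of the large subunit, gave 10031, 9166 and 6925 with BSA and 5924, 5714 and 6383.5 with palmitate. BSA 3 was low within its group and close to palmitate 3. The log2 fold change was -0.52 ± 0.16 (limma adjusted p = 0.0398), and the call was kept only on leaving out BSA 3 (adjusted p of 0.0164 to 0.141 over the arrays). Mrpl51, a large subunit protein without a bacterial counterpart, had 8058, 7237.5 and 7892 with BSA and 5805.5, 5567 and 5937.5 with palmitate. The arrays of each group were close together and the groups apart, at -0.42 ± 0.13 (limma adjusted p = 0.0438), but the call was lost on leaving out any array (adjusted p of 0.0783 to 0.120). The calls of Mrpl13 and Mrpl51 were also lost with arrays scaled to their median (adjusted p = 0.0811 and 0.0949).

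The promoters of 4 called members are shown because they belong to the 2 genes that rose and to 2 that fell with a small p. RefSeq start sites of mouse assembly GRCm38.p6 were used, and each window is the 250 bases before the start site, written 5′ to 3′ on the strand of the gene. Capitals mark a match to a motif searched on both strands. No window was given for Mrps35.
Mrps18b, chr17:35916441-35916690, minus strand: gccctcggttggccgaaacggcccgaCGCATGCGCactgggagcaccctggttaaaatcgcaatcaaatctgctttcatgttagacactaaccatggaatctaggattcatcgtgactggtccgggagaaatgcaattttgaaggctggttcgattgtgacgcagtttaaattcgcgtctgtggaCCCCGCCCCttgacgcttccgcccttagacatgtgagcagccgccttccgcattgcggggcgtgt
Mrps6, chr16:92058086-92058335, plus strand: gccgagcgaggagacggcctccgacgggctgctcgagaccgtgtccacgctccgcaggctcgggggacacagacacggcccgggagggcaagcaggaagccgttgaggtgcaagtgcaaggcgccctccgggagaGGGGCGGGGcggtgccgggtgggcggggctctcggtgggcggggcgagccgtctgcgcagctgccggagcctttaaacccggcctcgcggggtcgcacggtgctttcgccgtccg
Mrpl18, chr17:12916092-12916341, minus strand: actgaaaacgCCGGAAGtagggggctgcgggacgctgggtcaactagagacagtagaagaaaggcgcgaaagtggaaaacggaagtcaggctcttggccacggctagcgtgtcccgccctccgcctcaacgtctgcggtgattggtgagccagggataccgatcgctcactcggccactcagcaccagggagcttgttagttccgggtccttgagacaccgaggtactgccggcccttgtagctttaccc
Mrps15, chr4:126046678-126046927, plus strand: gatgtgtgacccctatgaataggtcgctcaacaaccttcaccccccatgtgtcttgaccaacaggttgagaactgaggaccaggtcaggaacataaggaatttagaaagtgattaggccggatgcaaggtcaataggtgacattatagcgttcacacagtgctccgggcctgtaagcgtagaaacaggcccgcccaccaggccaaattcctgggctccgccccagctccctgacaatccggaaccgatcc
The windows of both genes that rose held a GC box (GGGGCGGGG), at position -65 from the start site in Mrps18b and -115 in Mrps6, and that of Mrps18b also an NRF1 motif (GCGCANGCG) at -224. A GC box was also in the window of Mrps24, which fell, at -55. Motifs were searched by their exact letters only. The shorter run GGGCGG within the GC box also stands, on the other strand, in the windows of Mrpl18 and Mrps15, which fell. The window of Mrpl18 held a motif of GABP and other ETS factors (CCGGAAG) at -240, and that of Mrps15 held 0 of the 6 motifs. No matches overlapped in these windows. The GC box was found in 13 of the 65 members with a window (20.0%) and in 10.5% of the 27025 windows of all genes, 1 per gene.

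Other motifs of the regulators that act on nuclear genes for mitochondria were found in some members. The ETS motif was in 15 of 65 members (23.1%) and in 7.05% of all windows. The NRF1 motif was in 12 (18.5%, against 5.33%), 10 of them among 41 large and 2 among 24 small subunit genes, and Mrps18b was the 1 among the 6 called members with a window. With 1 more C at its 3′ end, which completes the palindrome, it was in 9 members (13.8%, against 3.86%) and in 0 of the called ones. The YY1 motif searched (AAGATGGC) was in 4 (6.15%, against 1.59%) and the E-box bound by Myc (CACGTG) in 5 (7.69%, against 6.05%). The amino acid response element bound by ATF4 (TGATGNAA) was in 0 of the 65 members and in 3.53% of all windows. Of these factors, Myc rose by 1.41 ± 0.14 on the log2 scale (limma adjusted p = 4.77e-05) and Gabpb1, the partner subunit of GABP, by 0.71 ± 0.18 (adjusted p = 0.0174). These were the 2 called of 12 tested regulators (16.7%, against 20.2% of all genes). Of the 12, 6 were above and 6 below 0 (median 0.06). Without BSA 2, palmitate 2 or palmitate 3, 1 regulator was called. Pprc1, a coactivator related to PGC-1α, was at 0.53 ± 0.17 (adjusted p = 0.0515) and the antioxidant regulator Nfe2l2 at 0.42 ± 0.15 (adjusted p = 0.0635). The PGC-1 relative Ppargc1b was at -0.57 ± 0.20 (adjusted p = 0.0679), with all palmitate arrays lower, Nrf1 itself at 0.67 ± 0.30 (adjusted p = 0.148) and Gabpa, the DNA-binding subunit of GABP, at -0.13 ± 0.22 (adjusted p = 0.729).

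Many members lie head to head with another gene. A start site on the opposite strand within 1000 bases upstream was listed for 24 of the 65 members (36.9%) and for 11.4% of all genes with a window, noncoding genes included. Mrpl46 and Mrps11, of different subunits, start 42 bases apart, at log2 fold changes of 0.17 ± 0.19 and 0.29 ± 0.24. Against 20.2% of all genes tested, 1 of the 15 neighbours tested, counting that pair from each side, passed the threshold. It was the condensin gene Ncapd2, whose start lies 614 bases from that of Mrpl51 and whose log2 fold change was -1.86 ± 0.34 (limma adjusted p = 0.00254). Mrpl18, which fell, starts 238 bases from the cytosolic chaperonin gene Tcp1, at 0.05 ± 0.12 (adjusted p = 0.825). Mrpl47 starts 308 bases from the complex I gene Ndufb5, and their log2 fold changes were 0.36 ± 0.22 and -0.32 ± 0.15, with neither called.

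**Figure D2:**
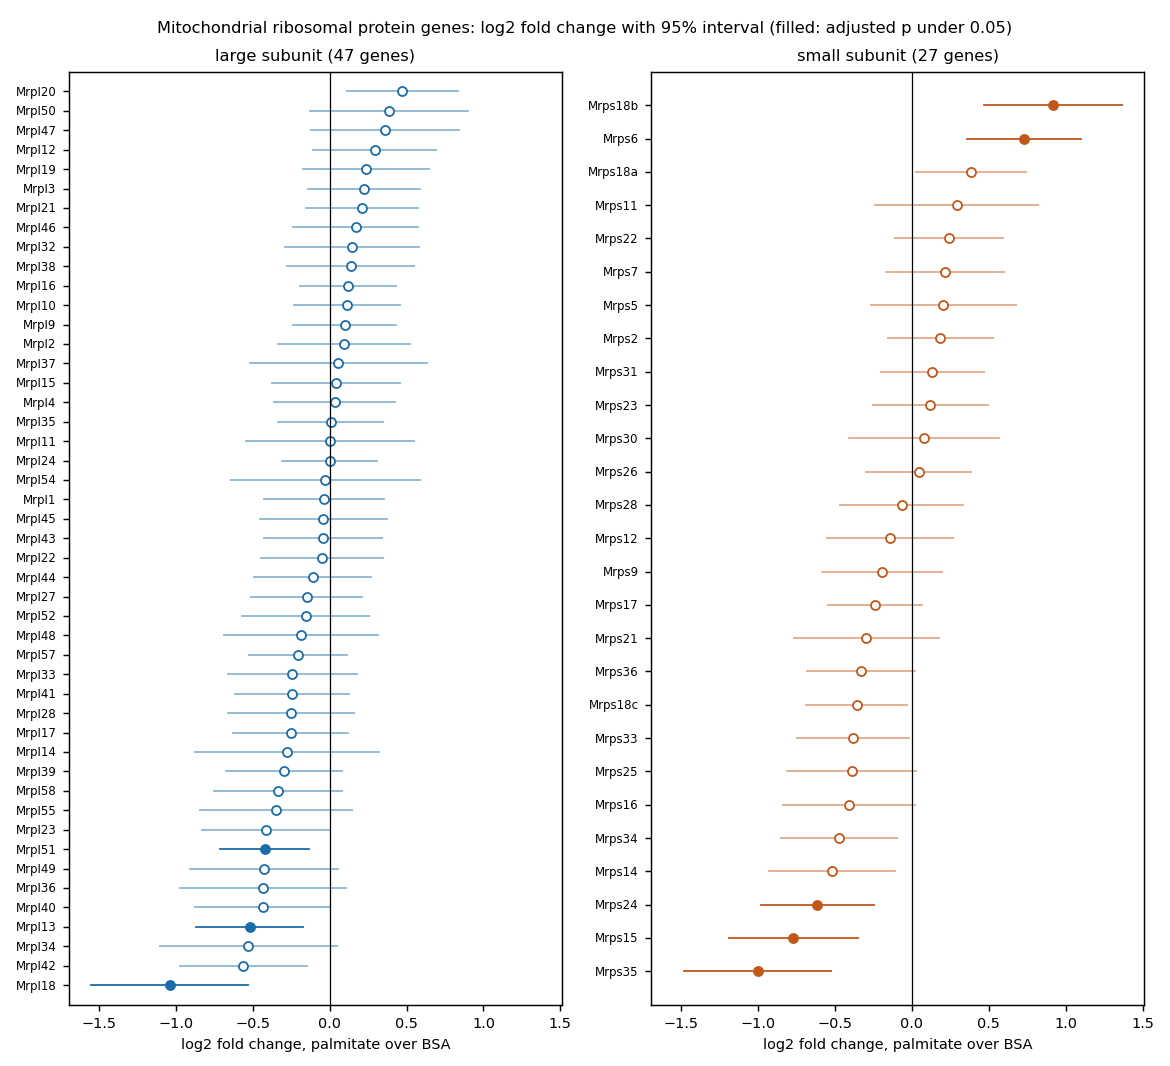
Log2 fold change (palmitate over BSA) of each of the 74 genes with its 95% interval, large subunit left and small subunit right, in order of the fold change, with filled points for an adjusted p under 0.05. Large subunit genes run from -1.04 (Mrpl18) to 0.47 (Mrpl20) and small subunit genes from -1.003 (Mrps35) to 0.92 (Mrps18b).

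The subunits were then set side by side. Of 47 large subunit genes 3 were called (6.38%) and of 27 small subunit genes 5 (18.5%), against 20.2% of all genes, so that the share in the small subunit is near that of all genes. The median log2 fold change was -0.05 in the large and -0.14 in the small subunit, a difference of 0.09, while the means were -0.10 in both. The difference was 0.0155 without BSA 2, 0.0191 without BSA 1 and 0.0365 without palmitate 1, the small subunit's median was -0.013 without BSA 1, and the large subunit's was 0.00613 without BSA 1 and -0.129 without BSA 2. Log2 fold changes ranged from -1.04 to 0.47 in the large subunit (SD over genes 0.30) and from -1.003 to 0.92 in the small (SD over genes 0.44). On the scale of mean log2 signal relative to the BSA arrays, the large subunit stood at 0.11, -0.07 and -0.04 on BSA 1 to 3 and at -0.14, -0.02 and -0.15 on palmitate 1 to 3. The small subunit stood at 0.08, -0.03 and -0.05 with BSA and at -0.14, -0.04 and -0.12 with palmitate. By these means the subunits were close together on each array, and BSA 1 was the highest for both. BSA and palmitate overlapped for both, since palmitate 2 lay above BSA 2 and 3 for the large subunit and above BSA 3 for the small. By the median over genes the groups overlapped for the large subunit but not for the small. The small subunit's medians were 0.03, -0.06 and -0.07 with BSA and -0.16, -0.15 and -0.19 with palmitate. The large minus small difference of medians reached 0.137 on palmitate 2. The large minus small difference of these means was 0.00 ± 0.02 on the palmitate arrays (SD, n = 3). On the BSA arrays it averages 0 by construction, with an SD of 0.03 (n = 3). Structures of the mammalian mitoribosome place the products of Mrps30 and Mrps18a in the large subunit despite their symbols. Counted there, the medians were -0.04 and -0.19. No p is given for these summaries, since the members were chosen with results of these data known.

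**Figure D3:**
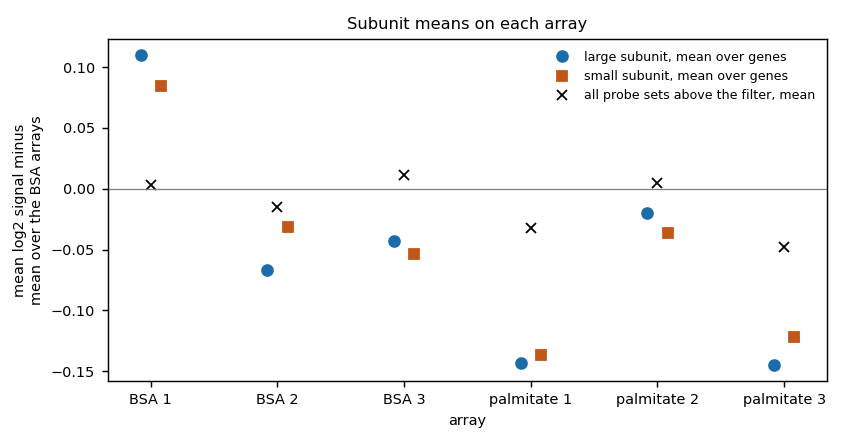
Mean log2 signal relative to the mean of the BSA arrays (y axis, log2 units) of the 47 large and 27 small subunit genes and of all probe sets above the filter, on each of the 6 arrays. Both subunits lie together on every array, from about 0.1 on BSA 1 to -0.14 or below on palmitate 1.

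The genes were also split by their counterpart in bacteria. This was read from the symbol, where lower numbers and Mrps24 count as having one, and was not checked gene by gene. Mrps36, taken up below, falls in the other class by this rule. Among 43 members counted as having a counterpart, 2 rose and 4 fell by limma, with 10 at an unadjusted p under 0.05. Their median was -0.00061, with 21 above and 22 below 0. Among 31 members counted as specific to mitochondria, 0 rose and 2 fell by limma (Mrps35 and Mrpl51). Of the 31, 5 had an unadjusted p under 0.05, and 10 lay above and 21 below 0, with a median of -0.16. In the latter the mean log2 signal relative to BSA was 0.06, -0.01 and -0.05 on the BSA arrays and -0.18, -0.09 and -0.19 on the palmitate arrays, so that all 3 palmitate arrays were lower. In the former it was 0.13, -0.08 and -0.04 against -0.11, 0.02 and -0.10, where the groups overlapped. Of all 7931 genes tested, 20.2% were called and 33.5% had an unadjusted p under 0.05, and both shares were smaller in each class. Of the 7931, 3644 lay above and 4287 below 0. The difference between these classes was not tested.

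The 3 mammalian relatives of bacterial S18 did not move alike. Beside the rise of Mrps18b, Mrps18a had signals of 3102, 3474 and 2930.5 with BSA and 3564, 4149 and 4754.5 with palmitate. All palmitate arrays were higher, yet its log2 fold change of 0.38 ± 0.16 did not pass over the table (limma adjusted p = 0.124). Mrps18c gave 3713, 4036 and 3640.1 with BSA and 3090.0, 2689 and 3119 with palmitate, where all palmitate arrays were lower, at -0.36 ± 0.15 (adjusted p = 0.123). The 95% intervals of Mrps18b (0.47 to 1.36) and Mrps18c (-0.69 to -0.03) do not meet. Structures place the 3 proteins at different sites, Mrps18a in the large and the others in the small subunit. Mrps30, whose product also sits in the large subunit, was at 0.08 ± 0.22 (adjusted p = 0.847).

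Next to the threshold lay Mrpl42 and Mrpl20. Mrpl42, specific to mitochondria, had 7629, 6764 and 4608 with BSA and 4274, 3849.5 and 4508 with palmitate. The groups just failed to meet, with BSA 3 far below the other BSA arrays, and the log2 fold change was -0.56 ± 0.19 (limma adjusted p = 0.0570, and 0.0119 without BSA 3). Mrpl20, counterpart of bacterial L20, gave 2493, 2799 and 2404 with BSA and 3371, 3185 and 4185 with palmitate. It was the highest of the large subunit, with all palmitate arrays higher, at 0.47 ± 0.17 (adjusted p = 0.0668). In the small subunit, Mrps14 (-0.52 ± 0.19), Mrps34 (-0.48 ± 0.17), Mrps33 (-0.38 ± 0.17) and Mrps25 (-0.39 ± 0.19) had all palmitate arrays below all BSA arrays, with adjusted p of 0.0753 to 0.183. Mrps17 did too, at -0.24 ± 0.14, as did Mrps36 at -0.33 ± 0.16. The product of Mrps36 has since been assigned to the 2-oxoglutarate dehydrogenase complex of the citrate cycle. Mrps16 was at -0.41 ± 0.20, with the groups overlapping.

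In the large subunit, Mrpl40 (-0.44 ± 0.20) had all palmitate arrays lower, with palmitate 1 at 1528 and the others at 2393 and 2463. Mrpl34 (-0.53 ± 0.26) and Mrpl49 (-0.43 ± 0.22), each by its brightest probe set, overlapped between groups through palmitate 2 alone. A second probe set of Mrpl49, nearly as bright, had all palmitate arrays lower, at -0.53 ± 0.19 (limma adjusted p = 0.0711). For Mrpl34, palmitate 1 and 3 were at 739.8 and 739.2 and palmitate 2 at 1402, among BSA values of 1161 to 1498, and without palmitate 2 it passed (adjusted p = 0.0253). Mrpl23 of the peptide exit tunnel was at -0.41 ± 0.19, Mrpl36 at -0.43 ± 0.25 and Mrpl39 at -0.29 ± 0.17. Mrpl58, a peptidyl-tRNA hydrolase built into the large subunit, was at -0.33 ± 0.19. None of these genes passed as deposited by its brightest probe set (adjusted p of 0.155 to 0.267). At the other end, Mrpl24 (0.00 ± 0.14), Mrpl11 (0.00 ± 0.25), Mrpl35 (0.01 ± 0.16) and Mrpl54 (-0.03 ± 0.28) had the smallest changes. The 95% interval of Mrpl24 was -0.31 to 0.31 on the log2 scale.

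Several genes are read by more than 1 probe set, and these did not always show the same. Of 26 members with at least 2 probe sets above the filter, 11 had probe sets that differed in sign or in their call. The brighter probe set of Mrps15, by a narrow margin, carried the call, while the other gave 1948, 1470.4 and 1945 with BSA and 1827, 1605 and 1528 with palmitate. These groups overlapped, at -0.10 ± 0.19 (limma adjusted p = 0.742), and the gene was not called with all its probe sets averaged, dim ones included (-0.44, adjusted p = 0.0915). For Mrpl13 the other 2 probe sets were at -0.07 ± 0.14 and -0.16 ± 0.26, and averaging gave -0.25 (adjusted p = 0.228). A dimmer probe set of Mrpl51 had 356.4, 365.8 and 357.7 with BSA and 425.4, 507.9 and 464.9 with palmitate. All palmitate arrays were higher there (0.37 ± 0.31, adjusted p = 0.446), opposite to the called probe set. The second probe set of Mrps24 was at -0.42 ± 0.20 (adjusted p = 0.179), and both of its probe sets carry the suffix that Affymetrix gives to probes shared by several transcripts or genes. Mrps35, Mrps18b, Mrpl18 and Mrps6 have 1 probe set each, so no second reading exists for them.

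**Figure D4:**
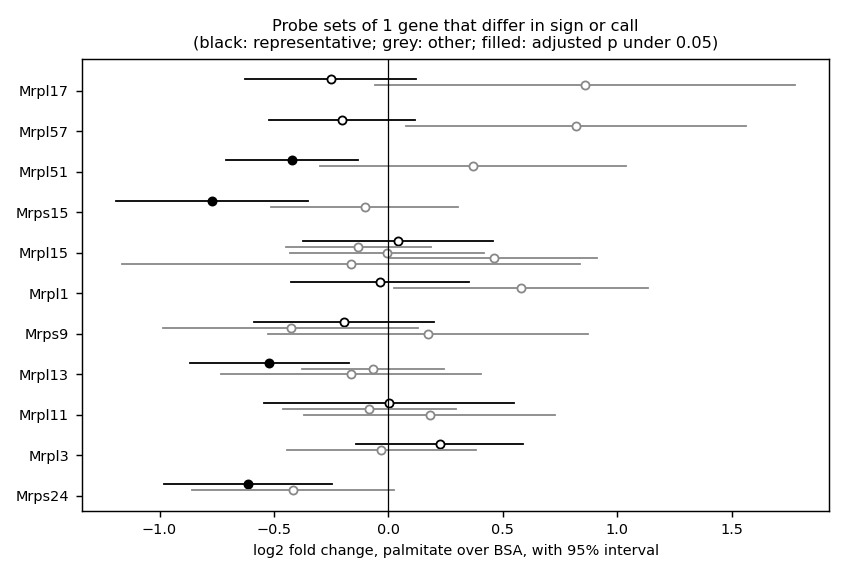
Log2 fold change with 95% interval (x axis) of every probe set above the filter for the 11 genes whose probe sets differ in sign or call; black marks the probe set that stands for the gene, grey the others, and filled points an adjusted p under 0.05. The called probe sets of Mrps15, Mrpl13, Mrpl51 and Mrps24 each have another that was not called.

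The widest gaps were those of Mrpl17 (-0.25 ± 0.17 and 0.86 ± 0.42) and Mrpl57 (-0.20 ± 0.15 and 0.82 ± 0.34), in which a dim probe set had the higher value. Mrpl1 ranged from -0.04 to 0.58, the 5 tested probe sets of Mrpl15 from -0.16 to 0.46, and the 3 of Mrps9 from -0.43 to 0.17. Those of Mrpl11 (-0.08 to 0.18) and Mrpl3 (-0.03 to 0.22) spanned less. In none of these genes did a probe set pass over the table (smallest limma adjusted p 0.117), while 3 of their probe sets had an unadjusted p under 0.05.

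**Figure D5:**
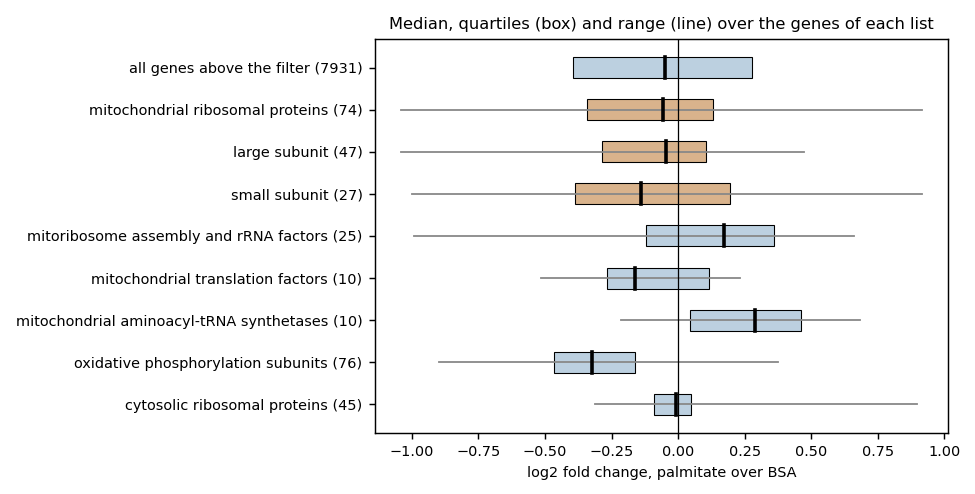
Median (thick line), quartiles (box) and range (thin line, not drawn for all genes) of the log2 fold change over the genes of each list, with the number of genes tested in brackets. The members centre near the median of all genes, the oxidative phosphorylation subunits lie lower at -0.32 and the cytosolic ribosomal proteins narrowly about 0.

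Other genes of mitochondrial translation were taken as lists. Of 4 mitoribosome proteins with other symbols (Chchd1, Gadd45gip1, Ptcd3 and Dap3), 0 were called by limma and 0 had an unadjusted p under 0.05, at -0.26 to 0.12. Of 25 tested factors that assemble the ribosome or process its RNA, 3 rose and 1 fell (16.0%, against 20.2% of all genes), with a median of 0.17. Those that rose were the GTPase Eral1, which binds the small subunit RNA (0.58 ± 0.18), the protease subunit Clpp (0.59 ± 0.17) and Mterf3 (0.51 ± 0.16), and the RNA-degrading phosphorylase Pnpt1 fell (-0.58 ± 0.17). On leaving out any single array, 0 to 1 assembly factors were higher and 0 to 1 lower. Of 10 genes listed as translation factors, membrane proteins included, 0 were called by limma and 1 had an unadjusted p under 0.05. The shares of all genes were 20.2% and 33.5%. That 1 was Letm1, an inner membrane protein rather than a translation factor proper, at -0.52 ± 0.23. Oxa1l, which inserts the products into the inner membrane, was at -0.27 ± 0.18, Mtres1 at -0.26 ± 0.18 and Gfm2 at -0.31 ± 0.27.

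Of 9 genes of mitochondrial transcription and DNA, Mterf2 fell (-0.97 ± 0.26, limma adjusted p = 0.0229) and 0 rose, 11.1% of the list against 20.2% of all genes. That call was lost without BSA 2, BSA 3 or palmitate 1, and 0 genes were lower with no filter or a stricter one. The DNA-packaging factor Tfam was at 0.42 ± 0.16 (adjusted p = 0.101), Tfb2m at 0.24 ± 0.19 and the polymerase Polg at 0.25 ± 0.22. Of 10 aminoacyl-tRNA synthetases that charge mitochondrial tRNAs, Gars, which also serves the cytosol, rose (0.50 ± 0.12, adjusted p = 0.0146), while Pars2 (0.68 ± 0.31), Sars2 (0.53 ± 0.37) and Hars2 (0.32 ± 0.26) did not pass. The share of synthetases called was 10.0%, against 20.2% of all genes, and without BSA 2, 0 synthetases were called. The nuclear-encoded subunits of oxidative phosphorylation, most of whose complexes also hold products of this ribosome, had 14 of 76 lower and 0 higher. The share called, 18.4%, is near the 20.2% of all genes, of which 12.3% were lower. Leaving out BSA 2 or palmitate 1 gave 6 lower, and leaving out BSA 1 or palmitate 3 gave 8. Of the 76, 67 lay below 0, with a median of -0.32 against -0.06 for the ribosomal proteins. The largest shifts by p were those of Ndufb10 (-0.78 ± 0.16), Atp5k (-0.89 ± 0.19), Ndufa6 (-0.65 ± 0.14) and Ndufb7 (-0.65 ± 0.14). Of 45 cytosolic ribosomal proteins, Rpl12 rose (0.90 ± 0.21, adjusted p = 0.0124) and 0 fell, so that 2.22% were called against 20.2% of all genes. Their median was -0.01 and their median absolute log2 fold change 0.08, against 0.24 for the mitochondrial ones. Without BSA 2, 0 were higher. The probe set of Rpl12 read only 547.2 to 677.1 with BSA and 1109.6 to 1186.3 with palmitate. Rps15 of the same list read 24703 to 38625 over the arrays. Rpl7l1, a relative of Rpl7 taken in by its symbol (0.42 ± 0.16), Rps25 (0.43 ± 0.19) and Rps15 (-0.31 ± 0.15) did not pass. The differences between lists were not tested.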

How the data were processed

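RNA of C2C12 myotubes was measured on 3 BSA and 3 palmitate arrays. The deposited values are signal intensities, 1 per probe set on a linear scale, made by the authors with MAS 5 per the submitters' processing notes. Its settings are not given in the sources used here, and detection calls were not used. Such signals are scaled per array, which hides a shift common to most transcripts. Of the 22626 probe sets other than the 64 controls, 20380 had 1 symbol, 691 several and 1555 none. All 127 member probe sets matched RefSeq (GRCm38.p6) by gene ID and 0 symbols changed.

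Signals were log2 transformed without an offset. Probe sets were kept when their mean log2 value lay above the 40th percentile, which left 13575. The groups were contrasted with limma 3.58.1 under R 4.3.3 (lmFit, eBayes with an intensity trend, two-sided, Benjamini-Hochberg over all probe sets kept, threshold 0.05), with 4 residual degrees of freedom. An SE or 95% interval is limma's. Each gene is represented by its brightest probe set (mean log2 over the arrays). Other ratios were tested by exact permutation in scipy 1.17.1. The number of arrays limits the precision.

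Members and lists were chosen with earlier results of these data known. The genes named were the 26 members with the smallest p, the 4 with the smallest change, those whose probe sets differ in sign or call, the relatives of S18 with Mrps30, and up to 4 genes of each list. The motifs, with both lengths of the NRF1 motif, and the search for neighbouring genes were chosen after values were seen. The NRF1 motif was first searched as the full palindrome and then shortened by its last letter. The naming of Ppargc1b, Nrf1, Gabpa and the neighbours was also chosen after values were seen. Alternatives were other scalings, offset, filters, variance models, a replicate block, averaged probe sets and leaving out each array. Arrays of the same replicate number did not deviate together (correlations of -0.23, -0.13 and 0.01), so the numbers were not taken as pairs.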

Additional observations from a re-analysis of the deposited data

How the results depend on the processing

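Mrps35, Mrps18b and Mrpl18 kept their direction and their call under all alternatives run on single genes, each array left out included.

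With arrays scaled to the hybridisation controls, 1 member probe set was higher and 24 lower, and 1 gene was higher and 21 lower. The median log2 fold change was then -0.31 in the large and -0.40 in the small subunit. Of the lists, the other mitoribosome proteins had a median of -0.35 with 1 lower, assembly factors -0.0869 with 0 higher, translation factors -0.42 with 1 lower, transcription and DNA genes -0.19, synthetases 0.0314 with 0 higher, regulators -0.19 with 1 higher and 1 lower, oxidative phosphorylation -0.58 with 49 lower, and cytosolic ribosomal proteins -0.27 with 0 higher and 2 lower. This scaling gave a call to 15 named members that lacked one and ended that of Mrps6.

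Without an intensity trend 3 member probe sets and 3 genes were lower, as with the replicate block, by which 3 and 3 were lower. For the lists, the fit without a trend had 0 assembly factors higher and 0 lower, 0 synthetases higher and 4 oxidative phosphorylation genes lower, and the block had 0, 0, 0 and 7. With all probe sets of a gene averaged, dim ones included, 3 member genes were lower, 0 assembly factors were lower, 4 regulators and 2 cytosolic ribosomal proteins were higher, and list medians were 0.0444 (other mitoribosome proteins), 0.269 (assembly), -0.0308 (translation factors), 0.00493 (transcription and DNA) and -0.00317 (synthetases). Without a filter, 1 assembly factor was higher and 0 transcription and DNA genes lower. With the stricter filter, 0 of the latter were lower with a median of 0.16, synthetases had a median of -0.00317, and 0 cytosolic ribosomal proteins were higher. Quantile normalization gave 1 cytosolic ribosomal protein lower. Placing Mrps30 and Mrps18a in the large subunit moved the small subunit's median to -0.19 and the difference to 0.15, and means in place of medians gave -0.0982 in the small subunit and a difference of -0.00427.

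Leaving out 1 array in turn gave 3 to 5 member probe sets and 3 to 5 genes lower, a large subunit median of -0.129 to 0.00613, a small subunit median of -0.173 to -0.013 and a difference of 0.0155 to 0.116. It gave medians of -0.177 to 0.0358 for the other mitoribosome proteins and -0.0342 to 0.109 for transcription and DNA. Assembly factors had 0 to 1 higher and 0 to 1 lower, transcription and DNA genes 0 to 1 lower, synthetases 0 to 1 higher, regulators 1 to 2 higher, oxidative phosphorylation 6 to 13 lower and cytosolic ribosomal proteins 0 to 1 higher. Over 37 named members, 576 values under an alternative stayed on their side of the threshold, 33 lost the call and 20 gained it, and 0 called values changed sign. Signals near the filter, as in the second probe sets of Mrpl17 and Mrpl57, limit what the array can show.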
